A study of Rattus norvegicus with 2 samples.

Results

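Collagen chains were taken as the protein-coding genes whose symbol is Col, digits, a, digits. There were 26 such genes among the 13706 with reads in either library: 10 fibrillar chains, 3 basement membrane chains of type IV and 13 minor chains. They were measured in total RNA of the myocardium of spontaneously hypertensive rats. This inbred strain becomes hypertensive with age, and its heart enlarges and turns fibrotic. One group (KXH) received Jiangya Kangxian formula, a herbal preparation, at its high dose of 9.6 g/kg into the stomach and the other (water) received distilled water, each for 12 weeks, in a study of cardiac remodelling in hypertension. All animals were of the hypertensive strain, and age and sex are not given in the labels. There was 1 library per group, and the labels do not say whether it came from 1 animal or from a pool. No normotensive group was analysed here, so the values compare 2 hypertensive hearts, or pools of hearts, with each other. The protein-coding tables held 14.1 M reads for KXH and 15.1 M for water (M, 1000000 reads). All 10 cardiomyocyte markers examined were present, with Myh6, the fast cardiac myosin heavy chain, at 4794 and 4824 RPKM (reads per kilobase of gene length per 1000000 reads of the table).

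Collagens are secreted proteins whose chains wind in groups into a stiff triple helix. In the heart, fibroblasts make most of the fibrillar types, I and III, which form the fibres between muscle bundles and accumulate in fibrosis. Type IV forms the sheet-like network of basement membranes around cardiomyocytes and vessels. The minor types decorate fibrils, join basement membranes to the tissue around them, or span cell membranes.

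With 1 library per group there was no test between the treatments. Each ratio of KXH over water below is a ratio of RPKM with a 95% exact counting interval, which covers counting error only and no difference between animals. "Higher" and "lower" describe these 2 libraries. Chains with at least 50 reads over both libraries entered the counts and medians, and 19 of the 26 passed. In a bulk sample, fewer cells of a type and less RNA per cell cannot be told apart.

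The main fibrillar chains Col1a1 and Col3a1 were slightly higher in the KXH library, each by 1.07 times. The type IV chains were lower, with ratios between 0.876 and 0.956, but the interval of Col4a4 included 1. With a trend on gene length removed, no type IV interval lay below 1. Some chains with at least 50 reads had a counting interval that excluded 1. The highest of these were Col11a2 at 1.52 times higher, Col8a1 at 1.43 times higher and Col14a1 at 1.20 times higher. The lowest were Col7a1 at 1.46 times lower and Col16a1 at 1.28 times lower. Col17a1, at 1.29 times higher on 30 and 25 reads, had an interval that included 1. The 26 chains together held almost the same share of reads in both libraries. No chain with at least 50 reads was 2-fold apart, and 0.65% of the 10621 genes with that many reads were.

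The promoters shown next belong to the chains on which the comparison turns: Col8a1 and Col16a1, a higher and a lower minor collagen, and the type IV genes, which lie head to head in pairs. They come from the RefSeq table of the GRCr8 assembly, which holds 21 of the 26 members. Capitals mark the GC box GGGCGG on either strand. The first is the 150 bases before the start of Col8a1 (chr11:56246632-56246781, plus strand), the second those before Col16a1 (chr5:147672946-147673095, plus strand), and the third those before Col4a3 (chr9:91323840-91323989, plus strand). The last is the whole stretch of 76 bases between the start sites of Col4a1 and Col4a2 (chr16:84885521-84885596, read towards Col4a1).
Col8a1: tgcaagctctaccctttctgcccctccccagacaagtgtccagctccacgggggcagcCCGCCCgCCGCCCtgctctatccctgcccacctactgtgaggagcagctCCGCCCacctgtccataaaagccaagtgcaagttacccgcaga
Col16a1: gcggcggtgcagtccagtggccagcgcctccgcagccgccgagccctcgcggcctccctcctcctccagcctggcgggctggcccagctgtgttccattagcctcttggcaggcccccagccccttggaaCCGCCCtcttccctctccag
Col4a3: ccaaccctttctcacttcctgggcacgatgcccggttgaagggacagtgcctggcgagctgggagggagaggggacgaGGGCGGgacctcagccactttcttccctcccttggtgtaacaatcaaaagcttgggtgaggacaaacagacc
Col4a1-Col4a2: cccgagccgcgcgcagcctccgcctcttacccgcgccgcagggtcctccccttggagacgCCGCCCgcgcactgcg

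The Col8a1 sequence held 3 GC boxes, starting 92, 85 and 43 bases before the start site. Col16a1 held 1, at 20 bases, Col4a3 held 1, at 72 bases, and the stretch between Col4a1 and Col4a2 held 1, at 16 bases before the Col4a1 start. Col4a3 and Col4a4 also start back to back, with 412 bases between their start sites. Over the 250 bases before the start, a GC box stood in 12 of the 21 collagen promoters (57.1%) and in 30.5% of 33469 promoters in the table. Among the collagens these were 5 of 7 fibrillar, 2 of 3 type IV and 5 of 11 minor promoters. The CCAAT box (CCAAT, either strand) stood in 6 of 21, or 28.6%, against 34.0% of all promoters, and the TATA box (TATAAA, either strand) in 3 of 21, or 14.3%, against 12.9%. The collagen promoters had a median GC content of 62% and all promoters one of 51.2%. The GC box occurred in promoters of chains on both sides of a ratio of 1, and a match of letters is a description, not evidence of a bound factor.

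Fibrillar chains made up the largest part of the transcripts of the 26 chains. Col3a1, the chain of type III collagen, was the most abundant of them at 201 RPKM after KXH and 187 RPKM after water. It ranked 355th and 384th among all genes. Col1a1, the chain present in 2 copies in type I collagen, stood at 57.0 and 53.2 RPKM. Its partner Col1a2, present in 1 copy, stood at 9.99 and 9.76 RPKM. The fibril-nucleating type V chains followed, with Col5a1 at 22.7 and 22.3 RPKM, Col5a2 at 20.9 and 22.0 RPKM and Col5a3 at 11.1 and 11.6 RPKM. Col27a1, a fibrillar chain best known from cartilage, was at 2.49 and 2.69 RPKM. Col11a2, which with Col2a1 and Col11a1 is typical of cartilage, was at 1.39 and 0.913 RPKM. Col11a1 had 5 and 3 reads, and Col2a1 had 2 in each library.

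**Figure D1:**
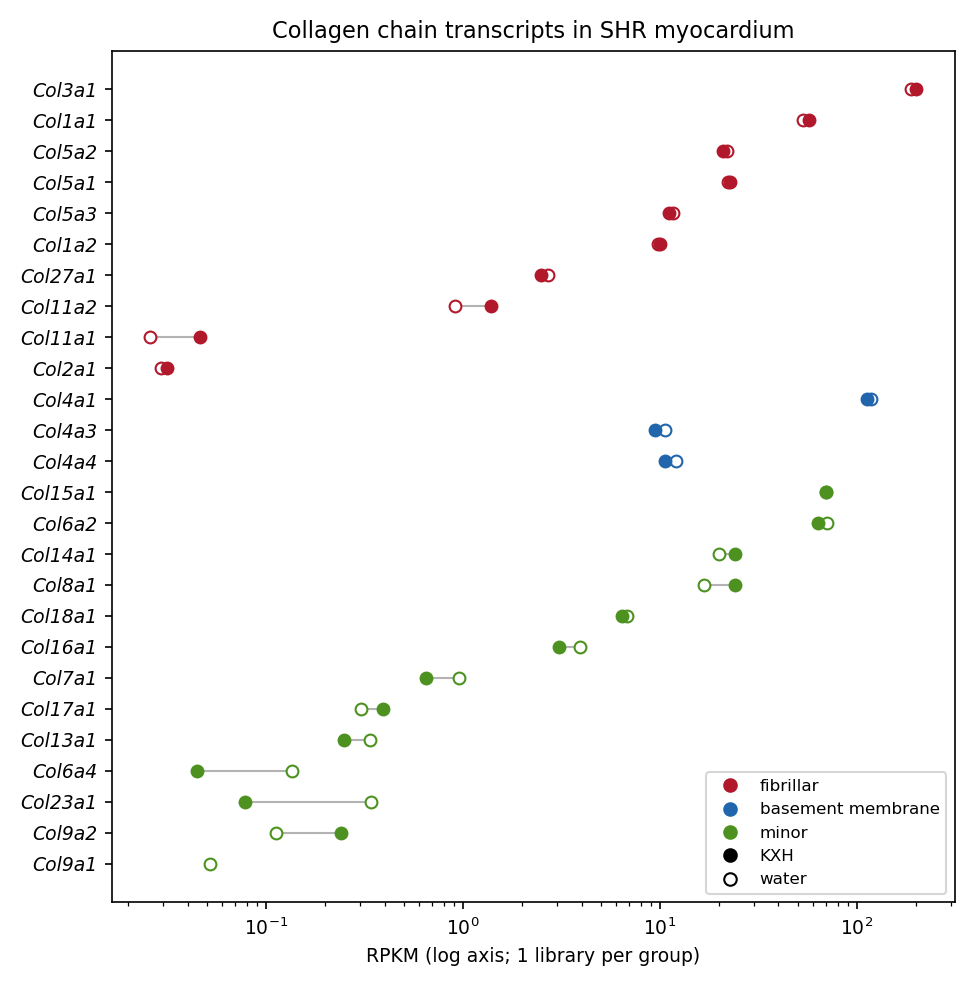
Level of each of the 26 collagen chains in RPKM on a log axis, with filled points for the KXH library, open points for the water library and colours for the class. The 2 points of a chain nearly coincide for the abundant chains and spread for those with few reads. Col9a1 had 0 reads in the KXH library and only its water point is drawn.

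Of the 8 fibrillar chains with at least 50 reads, 7 had ratios between 0.927 and 1.07, and Col11a2 stood apart. Col3a1 had a ratio of 1.07 (95% interval 1.05 to 1.10) and Col1a1 one of 1.07 (1.03 to 1.12), both with intervals above 1. Col1a2 was at 1.02 (0.916 to 1.14) and Col5a1 at 1.02 (0.953 to 1.09). Col5a3 was at 0.956 (0.874 to 1.04), Col5a2 at 0.949 (0.890 to 1.01) and Col27a1 at 0.927 (0.761 to 1.13). For these 5 chains no difference was detectable at this depth. Col11a2 had the highest ratio of all 19 chains, 1.52 (1.14 to 2.04), on 116 and 82 reads. With 1 RPKM added to each value, which shrinks low levels towards each other, its log2 ratio was 0.32 in place of 0.60. In all, 5 of these 8 fibrillar chains lay above 1 and 3 had intervals above 1, with none below. Over all 10621 genes the share of intervals above 1 was 11% and of intervals below 1 was 16.3%.

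The proportions compared among the fibrillar chains of types I, III and V differed little between the libraries. Col11a2, at 1.52 times higher, was not among these pairs. Per length, there were 3.52 Col3a1 transcripts for each Col1a1 transcript in either library (intervals 3.41 to 3.64 in both). Col1a1 exceeded Col1a2 by 5.71 times (5.25 to 6.21) after KXH and 5.45 times (5.02 to 5.92) after water. The transcript ratio was therefore above the 2 to 1 of the protein in both. The deposited coverage score of Col1a2 was 97.8% and 98.8%, which does not measure read depth. Why Col1a2 was this low was not tested. Col5a1 and Col5a2, which join in the main type V molecule, were near 1 to 1, at 1.08 (1.02 to 1.16) and 1.01 (0.950 to 1.08).

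The basement membrane chains were lower in the KXH library in 3 of 3 cases. Col4a1, the chain found in nearly every basement membrane, was at 113 and 118 RPKM, which gives a ratio of 0.956 (0.931 to 0.981). Col4a3 was at 9.49 and 10.6 RPKM, which gives a ratio of 0.894 (0.806 to 0.992). Col4a4, which assembles with Col4a3 in a network best known from the kidney glomerulus, was at 10.6 and 12.1 RPKM, which gives a ratio of 0.876 (0.712 to 1.08). The intervals of Col4a1 and Col4a3 lay below 1 and that of Col4a4 included 1, while 16.3% of all genes had intervals below 1. Col4a3 and Col4a4, whose start sites lie back to back, stood in nearly the same proportion in both libraries, 0.894 (0.755 to 1.06) in KXH and 0.876 (0.751 to 1.02) in water. The listed length of Col4a4 was 1152 bases against 5020 for Col4a3 and 6579 for Col4a1, so its RPKM rests on a shorter gene model. Col4a2, the partner of Col4a1 across their shared start region, was not analysed here.

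These type IV differences depended on how gene length was treated. Among all genes long transcripts had lower ratios than short ones: the median was 0.996 for 7307 genes under 3000 bases, 0.972 for 2349 genes of 3000 to 5000, 0.955 for 404 genes of 5000 to 6000 and 0.951 for 561 genes of 6000 or more. The share of intervals below 1 rose with length in step, from 12.4% under 3000 bases to 20.9%, 30.4% for 5000 to 6000 bases, the range of Col4a3, and 37.4% for 6000 or more, the range of Col4a1. With a smooth trend on length removed, Col4a1 moved from 0.956 to 1.003 (0.977 to 1.03) and Col4a3 from 0.894 to 0.932 (0.840 to 1.03). No type IV interval then lay below 1. With all ratios centred on the median gene, or scaled by a trimmed mean, 1 of the 3 still did, that of Col4a1.

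The same adjustment raised the ratio of each fibrillar chain with at least 50 reads. Their listed lengths ran from 4465 to 6079 bases, where the trend lay between 0.954 and 0.962. With the trend removed, Col3a1 stood further above 1 at 1.12 (1.09 to 1.14) and Col1a1 at 1.12 (1.08 to 1.17). Col5a2 at 0.994 and Col27a1 at 0.969 stayed below 1, and Col5a3 came to 1.001. The intervals of these last chains included 1. Among the 9 collagens of 5000 to 6000 bases the median ratio was 0.993, against 0.955 for all 404 genes of that length. Among the 19 collagens themselves length and log2 ratio were hardly related, with a Spearman coefficient of 0.037 across chains, against -0.15 across all 10620 genes with a ratio. Both coefficients are descriptions, since genes of 1 library are not independent replicates.

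**Figure D2:**
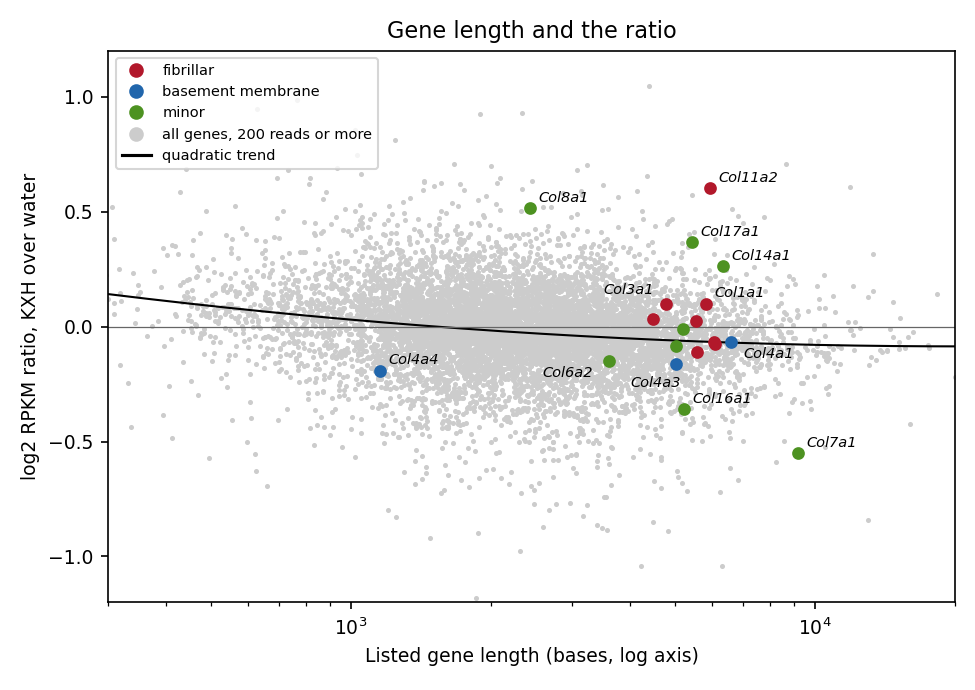
Log2 RPKM ratio of KXH over water against the listed gene length in bases (log axis) for 8761 genes with at least 200 reads (grey; 12 fall outside the axes), their quadratic trend (line) and the 19 collagen chains (coloured by class). The trend falls with length; Col4a1 sits on it, and Col3a1 and Col1a1 sit above it.

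The minor collagens went both ways and spread more widely. Col8a1, a short-chain network collagen of vessel walls and of remodelling tissue, was at 24.0 RPKM after KXH and 16.7 RPKM after water. Its ratio of 1.43 (1.29 to 1.59) was higher than that of 98.2% of all genes with at least 50 reads. Col14a1, a collagen that binds to fibril surfaces, was at 24.0 and 20.0 RPKM, which gives a ratio of 1.20 (1.13 to 1.28). Col16a1, of the same fibril-associated family, was at 3.07 and 3.94 RPKM, 1.28 times lower (1.08 to 1.53). Col6a2, a chain of the beaded filaments around cells, was at 63.5 and 70.3 RPKM, 1.11 times lower (1.06 to 1.16). Col7a1, which anchors epithelial basement membranes, was at 0.652 and 0.953 RPKM, 1.46 times lower (1.10 to 1.95) on 84 and 132 reads.

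With the length trend removed these 5 ratios kept their side of 1, with intervals that still excluded it. Col8a1 stood at 1.46 (1.31 to 1.62), Col14a1 at 1.26 (1.18 to 1.34), Col6a2 at 0.933 (0.890 to 0.978), Col16a1 at 0.814 (0.682 to 0.969) and Col7a1 at 0.721 (0.542 to 0.955). Both multiplexins, collagens of the basement membrane zone, differed by less than their counting error. Col15a1 was at 69.5 and 70.0 RPKM, which gives a ratio of 0.993 (0.956 to 1.03). Col18a1, whose end fragment is endostatin, was at 6.42 and 6.80 RPKM, which gives a ratio of 0.945 (0.831 to 1.07). Col17a1, a membrane-spanning chain of epithelia, had 30 and 25 reads and a ratio of 1.29 (0.733 to 2.29).

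The remaining minor chains had under 50 reads and entered no count or median. Col13a1, a membrane-spanning collagen, had 11 reads after KXH and 16 after water. Col6a4 had 4 and 13, and the cartilage chain Col9a2 had 10 and 5. Col9a1 had 0 and 3, both at or under a floor of 3 reads. Col23a1, also membrane-spanning, had 3 and 14 reads, with the KXH count at that floor, and a ratio of 0.230 with a counting interval of 0.042 to 0.825. Beyond Col23a1, none of the 7 chains under 50 reads had an interval that excluded 1.

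**Figure D3:**
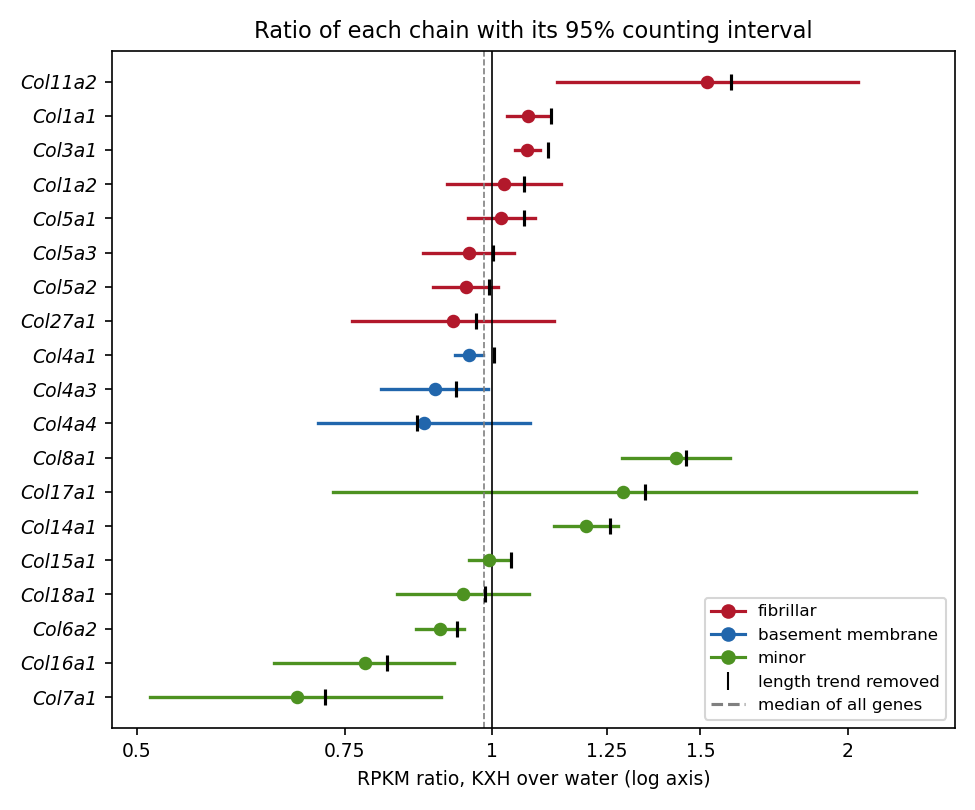
RPKM ratio of KXH over water on a log axis for the 19 chains with at least 50 reads, with 95% counting intervals, the ratio after removal of the length trend (black ticks) and the median of all genes (dashed, 0.985). Col11a2, Col8a1 and Col14a1 lie clear of 1 on the high side, Col6a2, Col16a1 and Col7a1 on the low side, and Col3a1 and Col1a1 sit just above 1. The intervals of Col4a1 and Col4a3 also lie below 1 before the trend is removed.

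Set beside all genes, the collagens were not shifted as a group. Of the 19 chains 8 were higher and 11 lower in the KXH library (57.9% lower), against 55.2% lower over all genes. Their median log2 ratio was -0.07, with all genes at -0.02, and it was 0.0042 with the length trend removed. Intervals lay above 1 for 5 of the 19 and below 1 for 5, where 11% and 16.3% of all genes had such intervals. Abundant genes have narrow intervals, so the 12 collagens with at least 1000 reads were set beside the 4619 genes with as many. Of these 12 chains, 4 had intervals above 1 and 3 below, while the shares among all such genes were 15.4% and 21.3%. The chains with ratios of at least 1.2 were Col8a1, Col11a2, Col14a1 and Col17a1, 4 of 19, against 7.51% of all genes. Those at least 1.2 times lower were Col7a1 and Col16a1, 2 of 19, against 12.3%.

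By class, the fibrillar chains had a median log2 ratio of 0.03, the type IV chains one of -0.16 and the minor chains one of -0.05. With the length trend removed these were 0.09, -0.10 and 0.02. The minor median thus changed sign while the other 2 kept theirs. With 3 type IV chains and 1 library per group, the order of the classes is a description of these libraries.

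The total over the 26 chains hardly differed. It leaves out chains not analysed here, among them Col4a2, Col6a1 and Col6a3. The shares by class therefore describe these 26 chains only, not all collagen of the tissue. All 26 chains together held 0.334% of protein-coding reads after KXH (exact 95% interval 0.331 to 0.337) and 0.329% after water (0.326 to 0.332), a ratio of 1.01 (1.00 to 1.03). By summed RPKM the total was 652 and 641. Fibrillar reads gave a ratio of 1.05 (1.03 to 1.07), type IV reads one of 0.951 (0.927 to 0.975) and minor reads one of 1.01 (0.982 to 1.03). The type IV ratio mainly describes Col4a1, which held 10451 of the 11293 type IV reads in KXH. With the length trend removed, the ratio of Col4a1 was 1.003. Fibrillar chains held 50.1% of collagen RPKM after KXH and 48.4% after water, type IV chains 20.4% and 22.0%, and minor chains 29.5% and 29.6%. Col3a1 and Col4a1 alone held 30.8% and 17.3% of it in KXH and 29.2% and 18.4% in water.

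Genes that act on collagen were examined as lists, counted in the same way. Each count below is to be set beside all genes, of which 44.8% were higher and 55.2% lower, with 11% of intervals above 1 and 16.3% below. Among those for synthesis and processing, 10 of 23 measured genes were higher and 13 lower, with 5 intervals above 1 and 3 below, and the median log2 ratio was -0.03 against -0.02 for all genes. The shares higher and with intervals below 1 were near those of all genes. Loxl1, a crosslinking oxidase, was at 11.3 and 7.27 RPKM, 1.55 times higher (1.32 to 1.82). Plod2, which hydroxylates lysines of the telopeptides, was at 9.09 and 7.31 RPKM, 1.24 times higher (1.09 to 1.42). Adamts3, a procollagen protease, was 1.58 times lower (1.08 to 2.32) on 46 and 78 reads. Loxl4, another oxidase of this family, had a ratio of 0.824 (0.607 to 1.12).

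Proteoglycans and other proteins that bind fibrils had a median log2 ratio of 0.11, with 7 of 11 higher, 6 intervals above 1 and 1 below, where 11% and 16.3% of all genes had such intervals. Aspn, which binds collagen fibrils, was 1.49 times higher (1.10 to 2.03), and Prelp, which links basement membranes to collagen, 1.20 times higher (1.05 to 1.38). Fn1, the fibronectin on which collagen is laid down, was at 21.7 and 25.7 RPKM, 1.19 times lower (1.12 to 1.25). Fmod, a regulator of fibril diameter, had a ratio of 0.806 (0.593 to 1.09).

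Collagen receptors were lower in 5 of 6 cases, with 3 intervals below 1, 1 above and a median log2 ratio of -0.15, where 55.2% of all genes were lower, 16.3% had intervals below 1 and 11% above. The median was -0.03 among those with at least 200 reads. Itga1, whose integrin binds type IV collagen, was at 38.0 and 45.9 RPKM, 1.21 times lower (1.14 to 1.28). Ddr2, a receptor for fibrillar collagen, was at 21.2 and 25.5 RPKM, 1.20 times lower (1.11 to 1.30). Its relative Ddr1, which also binds type IV, was 1.16 times higher (1.06 to 1.28). Itgb1, the shared beta subunit, had a ratio of 0.977 (0.950 to 1.01).

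Genes of collagen breakdown and its inhibition had a median log2 ratio of -0.08, with 5 of 7 lower, 2 intervals below 1 and 1 above, where 55.2% of all genes were lower and 16.3% and 11% had such intervals. Timp2, an inhibitor of matrix proteases, was at 86.8 and 72.6 RPKM, 1.20 times higher (1.12 to 1.27). Mmp14, a membrane-bound collagenase, was 1.15 times lower (1.03 to 1.29), and the inhibitor Timp3 1.09 times lower (1.03 to 1.16). Timp1 had a ratio of 0.917 (0.694 to 1.21).

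The partners of type IV collagen in basement membranes were lower in 7 of 10 cases, with 4 intervals below 1 and 1 above. The 10 measured partners ran from 4076 to 11307 bases, with a median of 6280. Among all genes, 20.9% of 3000 to 5000 bases had intervals below 1, 30.4% of 5000 to 6000 and 37.4% of 6000 or more. Intervals above 1 made up 8.77%, 10.4% and 10.7%. The count below 1 was thus near the share of the longest class only. The median log2 ratio of the partners was -0.14, and -0.07 with the length trend removed. Agrn, a large heparan sulfate proteoglycan, was at 22.6 and 27.1 RPKM, 1.20 times lower (1.14 to 1.27). Pxdn, the peroxidase that crosslinks type IV collagen, was at 34.6 and 39.1 RPKM, 1.13 times lower (1.08 to 1.18). The laminin chains Lamb3 and Lamc3 had ratios of 0.791 (0.622 to 1.005) and 0.801 (0.636 to 1.01).

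**Figure D4:**
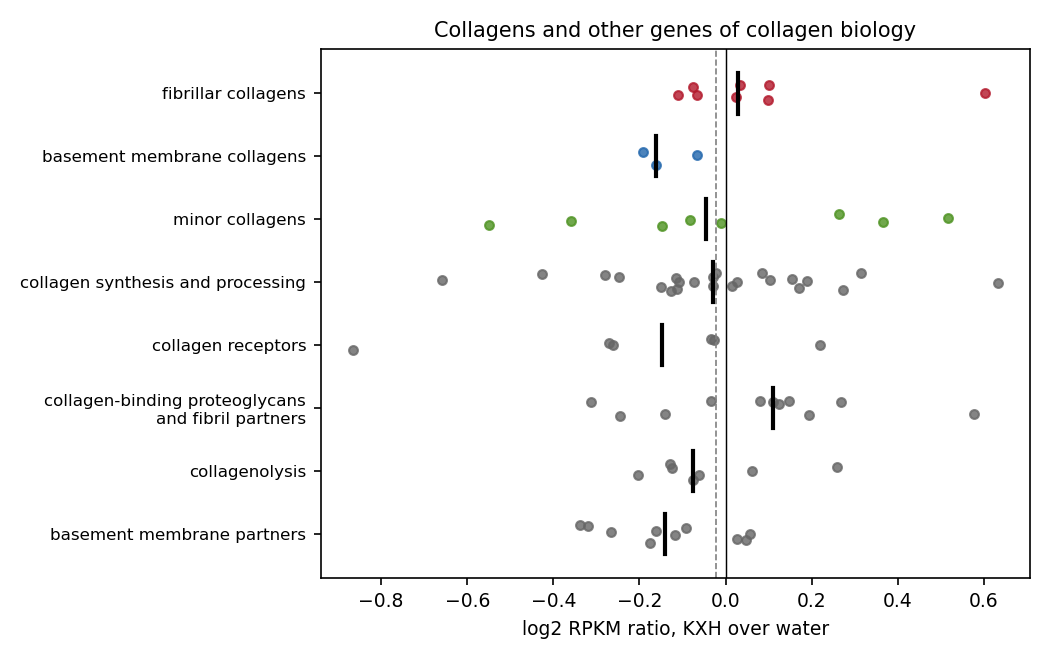
Log2 RPKM ratio of KXH over water for each collagen (coloured) and each gene of 5 lists of collagen biology (grey), with the median of each row (black bar) and of all genes (dashed). Fibrillar collagens and collagen-binding proteins have medians above 0, and type IV collagens, their basement membrane partners and collagen receptors the lowest medians.

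Markers of cell types that can make these collagens were counted beside the same shares of all genes, 44.8% higher and 55.2% lower. Fibroblast markers were higher in 7 of 8 cases, with a median log2 ratio of 0.18 and a summed level of 783 RPKM in KXH and 688 in water. Of this list Dcn, Lum and Dpt also stand among the collagen-binding genes above. Dcn, its most abundant member, was at 482 and 422 RPKM, which gives a ratio of 1.14 (1.11 to 1.17), and Pdgfra had one of 0.966 (0.921 to 1.01). Markers of activated fibroblasts were higher in 4 of 5 cases, with a median of 0.28 but summed levels of 45.7 and 48.6 RPKM. Thbs4 was 1.63 times higher (1.40 to 1.90), and Acta2, which smooth muscle also makes, 1.35 times lower (1.20 to 1.52). Endothelial markers were lower in 10 of 10 cases, with a median of -0.16 and summed levels of 542 and 609 RPKM, among them Kdr at a ratio of 0.860 (0.828 to 0.894) and Vwf at 0.937 (0.908 to 0.967). Smooth muscle and pericyte markers were lower in 9 of 9 cases, with a median of -0.38 and summed levels of 313 and 366 RPKM, among them Notch3 at 0.770 (0.724 to 0.818) and Pdgfrb at 0.839 (0.795 to 0.885). Clec3b, on the fibroblast list, was not analysed here, and no other marker of these 4 groups was at 0 in either library. The part of these cell types in the collagen ratios was not tested.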

How the data were processed

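The protein-coding tables of both libraries were used. The authors deposited for each gene a count of reads headed as unique, a length, a covered share of that length (a score here, as some values exceed 100 on its percent scale) and RPKM. Bowtie 0.12.2 and the rn6 build are named, per the submitters' processing notes, without a role. Which counter and annotation were used, and whether strand was, is not given in the sources used here. The deposited RPKM equals the count per kilobase per 1000000 reads of the table, checked to a relative difference of 1e-09. A gene absent from 1 table was taken as 0 reads. The lncRNA tables were not used.

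Ratios are RPKM ratios with nothing added. Intervals are exact Clopper-Pearson intervals at 95% on the fraction of each gene's reads that is KXH, given both totals. Without molecular identifiers, reads are not independent molecules. Medians were taken over genes with 50 or more reads in sum. The length trend is a quadratic of the log2 ratio on log2 length over genes with at least 200 reads. The steps were tested on simulated data. Every collagen chain with reads in either library was accounted for. Other chains, among them Col4a2 and the Col6a2 partners Col6a1 and Col6a3, were not analysed here. From each list of collagen biology up to 4 genes farthest from a ratio of 1 were named, and from each marker list the 2 with most reads, both among genes with at least 100 reads. The result of 1 marker list is not reported here. Members and lists were chosen with earlier results of these data known. Alternatives were added values of 1 and 0.1 RPKM, other filters, centring, trimmed means (30% of ratios, 5% of levels), removal of the length trend and other class borders. Calculations used scipy 1.17.1 and pandas 2.3.3 under Python 3.11.15, with numpy 2.4.6, and plots matplotlib 3.10.9.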

Additional observations from a re-analysis of the deposited data

How the results depend on the processing

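No paired analysis was possible because there was 1 library per group. The 39 alternatives for the medians of the 3 classes and of all collagens stayed within the median counting error of a member, although some signs turned. On the log2 scale that error was 0.11 for fibrillar chains, 0.17 for minor chains and 0.15 for all collagens. It exceeded the size of these 3 medians themselves, so the check could hardly fail for them. The minor median was 0.02 and that of all collagens 0.0042 with the length trend removed, the minor median was 0.06 with Col15a1 and Col18a1 counted as basement membrane, and the mean over all collagens was 0.0099. Over 95 alternatives for the 19 single chains, only the log2 ratio of Col4a1 changed sign after its interval excluded 1, to 0.0042 with the length trend removed, since the trend at its length lies close to its ratio. The number of type IV intervals below 1 went from 2 to 1 with centring and with trimmed mean scaling, and to 0 with the length trend removed, and that of all collagens went from 5 to 3 with the latter. With globin and cardiomyocyte markers left out of the total, collagens held 0.373% of reads after KXH and 0.366% after water. Leaving out Col4a4, chosen after its length was seen, gave a type IV median of -0.11. Depth limits the chains under 50 reads, and animal-to-animal variation was not measured.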

Other observations

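Markers of other cell types were counted in the same way. Each count, except that of cardiomyocyte intervals, is to be set beside all genes. Of all genes 44.8% were higher and 55.2% lower, with 11% of intervals above 1 and 16.3% below. Erythroid markers were lower in the KXH library in 5 of 5 cases, 3 with intervals below 1, with a median log2 ratio of -0.56. The beta-globin Hbb was 1.47 times lower (counting interval 1.44 to 1.50) and the haem synthesis enzyme Alas2 1.58 times lower (1.43 to 1.74). Mesothelial markers were higher in 4 of 5 cases, with a median of 0.50, Msln at a ratio of 1.42 (1.19 to 1.69) and Wt1 at 0.899 (0.763 to 1.06). Macrophage markers were lower in 5 of 8 cases, near the share of all genes. Their median was -0.09, with Lyz2 at 0.927 (0.878 to 0.979) and Csf1r at 0.951 (0.871 to 1.04). Valve and cartilage markers had 3 measured members, all with intervals that included 1, and a median of 0.17, Sox9 at 1.12 (0.972 to 1.30) and Cytl1 at 0.877 (0.758 to 1.01). Matn1 and Matn3 of that list were at 0 in 1 library. Cardiomyocyte markers were higher in 7 of 10 cases, with a median of 0.10, 7 intervals above 1 and 3 below. Their median counting error was 0.014 on the log2 scale, against 0.20 for all genes. Intervals this narrow exclude 1 at small differences, so these interval counts cannot be compared with the shares of all genes. Myh6 was at 0.994 (0.989 to 0.998) and Myh7, the slow myosin, at 1.16 (1.15 to 1.16). Each value compares 2 libraries with no replicate.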
